A study of Homo sapiens with 2 samples.

Results

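The nuclear-encoded subunits of the mitochondrial respiratory chain and ATP synthase were described in Tu212 cells with and without PRMT5 overexpression. Protein-coding rows of the deposited table were taken by gene symbol: the NDUFA, NDUFB, NDUFC, NDUFS and NDUFV genes, the SDH genes, the UQCR genes and CYC1, the COX4 to COX8 genes and the ATP5 genes. This gave 92 of 58302 genes, of which 85 had 10 or more reads in at least 1 library. By the complex their proteins belong to, 37 fall in complex I, 4 in complex II, 10 in complex III, 19 in complex IV and 20 in complex V, and 2 are readthrough genes that join a subunit gene to its neighbour. NDUFA4 and NDUFA4L2 were placed with complex IV, where the NDUFA4 protein is now assigned.

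Tu212 is an epithelial-derived cell line, known as a head and neck squamous carcinoma model. Cells carried the empty pEZ vector in the control group and a pEZ plasmid that encodes PRMT5 in the other, each for 48 h. There was 1 library of polyadenylated RNA per group, so differences have no replicate check, no test was made, and each value below belongs to these libraries rather than to the condition. The vector control library held 14119997 reads on genes and the PRMT5 overexpression library 19908258.

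The label was checked on PRMT5, an arginine methyltransferase that places symmetric dimethyl marks. It was at 145 CPM (read counts scaled to the same total in each library) in the vector control and 293 CPM in the PRMT5 overexpression library, from 2068 and 5770 reads, which is 2.02-fold higher. All 10 squamous epithelial markers were present in both libraries, with KRT5 at 65233 and 100083 reads. Of the fibroblast markers, 6 of 8 passed 10 reads. The summed level of all 8 was 98.9 CPM in the control and 82.0 CPM in the other library, most of it from COL1A1. FAP was at 0 in both. Of the 6 markers, 5 were lower in CPM in the PRMT5 overexpression library and 1 was higher. From few reads, COL1A2 was at 26 and 7, COL3A1 at 11 and 2 and DCN at 12 and 0. Summed leukocyte markers were at 21.6 and 17.0 CPM, mostly CD68, with PTPRC at 0 and 4 reads, and summed endothelial markers were at 5.96 and 4.46 CPM, with CDH5 and KDR at 0 in both. The part of other cells in the values below was not tested, and in bulk RNA a change in the number of cells of a type and in RNA per cell cannot be told apart.

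The respiratory chain moves electrons from NADH and succinate to oxygen in the inner mitochondrial membrane. Complex I oxidises NADH, complex II oxidises succinate, complex III passes electrons from ubiquinol to cytochrome c, and complex IV hands them to oxygen. Complexes I, III and IV pump protons, and complex V, the ATP synthase, uses the resulting gradient to make ATP. Complexes I, III, IV and V are built from proteins of both genomes: a few core subunits are made inside the mitochondrion from its own DNA, and the nuclear subunits studied here are imported. Complex II is made of nuclear proteins alone. The transcription factors NRF1, GABPA (an ETS factor) and YY1 are known to bind the promoters of many of these nuclear genes.

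Promoter letters are shown because NRF1 and ETS letters stand in members with a higher ratio and in members near 0 alike. Log2 ratios (defined below) ran from -0.11 to 0.89 with NRF1 letters and from -0.08 to 0.89 with ETS letters. The 16 members with YY1 letters had log2 ratios of -0.13 to 0.25. ATP5ME is the upper end for both NRF1 and ETS letters, so the difference in range rests on few genes. The RefSeq table of promoters (GRCh38.p14), with 250 bases before and 50 after each gene's start, held 69 of the 92 genes, 66 of them with at least 10 reads in 1 or both libraries. The NRF1 letters (GCGC, any base, then TGCGC), searched like the others on both strands, stood in 15 of these 66 windows (22.7%) and in 6.28% of 27305 windows of the same length in the whole table. The ETS letters CCGGAAG stood in 19 (28.8%, against 10.7%), the YY1 letters AANATGGCG in 16 (24.2%, against 3.37%) and the Sp1 letters GGGCGG in 41 (62.1%, against 44.6%), and a base could count for more than 1 motif. NDUFB9, NDUFA4 and ATP5MF, with log2 ratios of -0.41, 0.55 and 0.61, had no window and are outside these counts and ranges. A match is only a description of the letters.

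Below are the bases before the first annotated exon for 5 of these promoters, 5′ to 3′ on the gene's strand, with NRF1, ETS and YY1 letters in capitals. ATP5ME, which encodes subunit e of ATP synthase, had the highest ratio among genes that are not readthroughs; its bases are chr4:674339-674526 on the minus strand, with 2 NRF1 matches.
ATP5ME: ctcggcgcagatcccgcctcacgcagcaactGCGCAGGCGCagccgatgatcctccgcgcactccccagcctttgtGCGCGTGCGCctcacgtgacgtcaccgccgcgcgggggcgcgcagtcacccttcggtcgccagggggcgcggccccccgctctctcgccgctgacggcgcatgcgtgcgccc
NDUFB4, an accessory subunit of complex I, and SDHA, the flavoprotein of complex II, also carry 2 NRF1 matches each in the bases shown, at chr3:120596086-120596308 and chr5:218070-218240 on the plus strand, and had ratios near 0.
NDUFB4: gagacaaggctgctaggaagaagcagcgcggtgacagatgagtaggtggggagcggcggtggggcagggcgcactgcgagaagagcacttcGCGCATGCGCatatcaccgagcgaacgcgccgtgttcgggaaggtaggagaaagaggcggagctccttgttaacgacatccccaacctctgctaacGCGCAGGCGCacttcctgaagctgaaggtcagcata
SDHA: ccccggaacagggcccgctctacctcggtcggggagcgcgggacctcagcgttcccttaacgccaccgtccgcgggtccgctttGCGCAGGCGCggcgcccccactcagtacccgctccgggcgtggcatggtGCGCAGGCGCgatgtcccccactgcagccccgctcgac
UQCR11, a small subunit of complex III, has 2 ETS matches in chr19:1605491-1605712 on the minus strand, and NDUFS8, an iron-sulphur subunit of complex I, has 1 YY1 match in chr11:68030431-68030616 on the plus strand.
UQCR11: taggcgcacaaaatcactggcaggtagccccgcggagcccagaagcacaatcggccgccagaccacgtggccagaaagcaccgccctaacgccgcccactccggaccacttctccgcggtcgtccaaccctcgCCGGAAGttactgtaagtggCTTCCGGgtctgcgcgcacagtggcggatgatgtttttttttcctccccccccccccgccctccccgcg
NDUFS8: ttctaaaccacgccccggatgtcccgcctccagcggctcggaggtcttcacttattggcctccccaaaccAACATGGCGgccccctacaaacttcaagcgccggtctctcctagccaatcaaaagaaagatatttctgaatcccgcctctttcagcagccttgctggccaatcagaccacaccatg
Over their full windows, into the annotated exon, ATP5ME has 1 ETS match besides its 2 NRF1 matches, UQCR11 has 2 NRF1 matches besides its 2 ETS matches, NDUFB4 has 3 NRF1 matches and SDHA has 4. The log2 ratios of these 5 genes (PRMT5 overexpression minus vector control, on TMM-scaled CPM) were 0.89 for ATP5ME, 0.04 for NDUFB4, -0.02 for SDHA, 0.29 for UQCR11 and 0.06 for NDUFS8. Genes with and without NRF1 letters had median log2 ratios of 0.14 and 0.14, those with and without ETS letters 0.18 and 0.11, those with and without YY1 letters 0.10 and 0.15, and those with and without Sp1 letters 0.13 and 0.15.

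Most subunit transcripts were slightly higher in the PRMT5 overexpression library. Of the 85 genes past 10 reads, 66 (77.6%) had a log2 ratio above 0, where 50.4% of all 17777 genes past the same floor did so. The median log2 ratio was 0.14, against 0.00 over all genes, and the range was -0.41 to 0.98. Each of the 85 had at least 102 reads in either library, so none had passed through 1 library alone. The 95% counting interval (Clopper-Pearson, counting error only) lay wholly above 0 for 52 of the 85 genes (61.2%) and wholly below 0 for 4, where 14.3% of all genes lay on each side. Well-read genes have narrower intervals, and among all genes averaging at least 500 reads 22.3% lay wholly above 0 and 20.8% wholly below, while 51 of the 79 subunits with that many reads (64.6%) lay above and 4 below.

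Large differences were few. A 1.5-fold higher level was seen for 4 of 85 genes (4.71%), near the 7.06% of all genes that reached it, and 0 were 1.5-fold lower, against 5.33%. Among genes averaging at least 500 reads, 3 of 79 subunits were 1.5-fold higher against 1.62% of all such genes, and 0 were 1.5-fold lower against 1.38%. No subunit reached 2-fold in either direction, against 2.9% of all genes higher and 1.94% lower. The 4 genes were ATP5ME, ATP5MG, ATP5MF and the readthrough NDUFC2-KCTD14, while ATP5PO and NDUFA4 lay just under 1.5-fold. All 4 share exon bases with another counted gene. Summed with that gene, ATP5ME and ATP5MG were at 0.83 and 0.86 in log2, and ATP5MF and NDUFC2-KCTD14 at 0.38 and 0.26. Among the 50 subunits that share none, 0 reached 1.5-fold, with a median log2 ratio of 0.13. The 1.5-fold share over all genes that share none was not calculated.

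**Figure D1:**
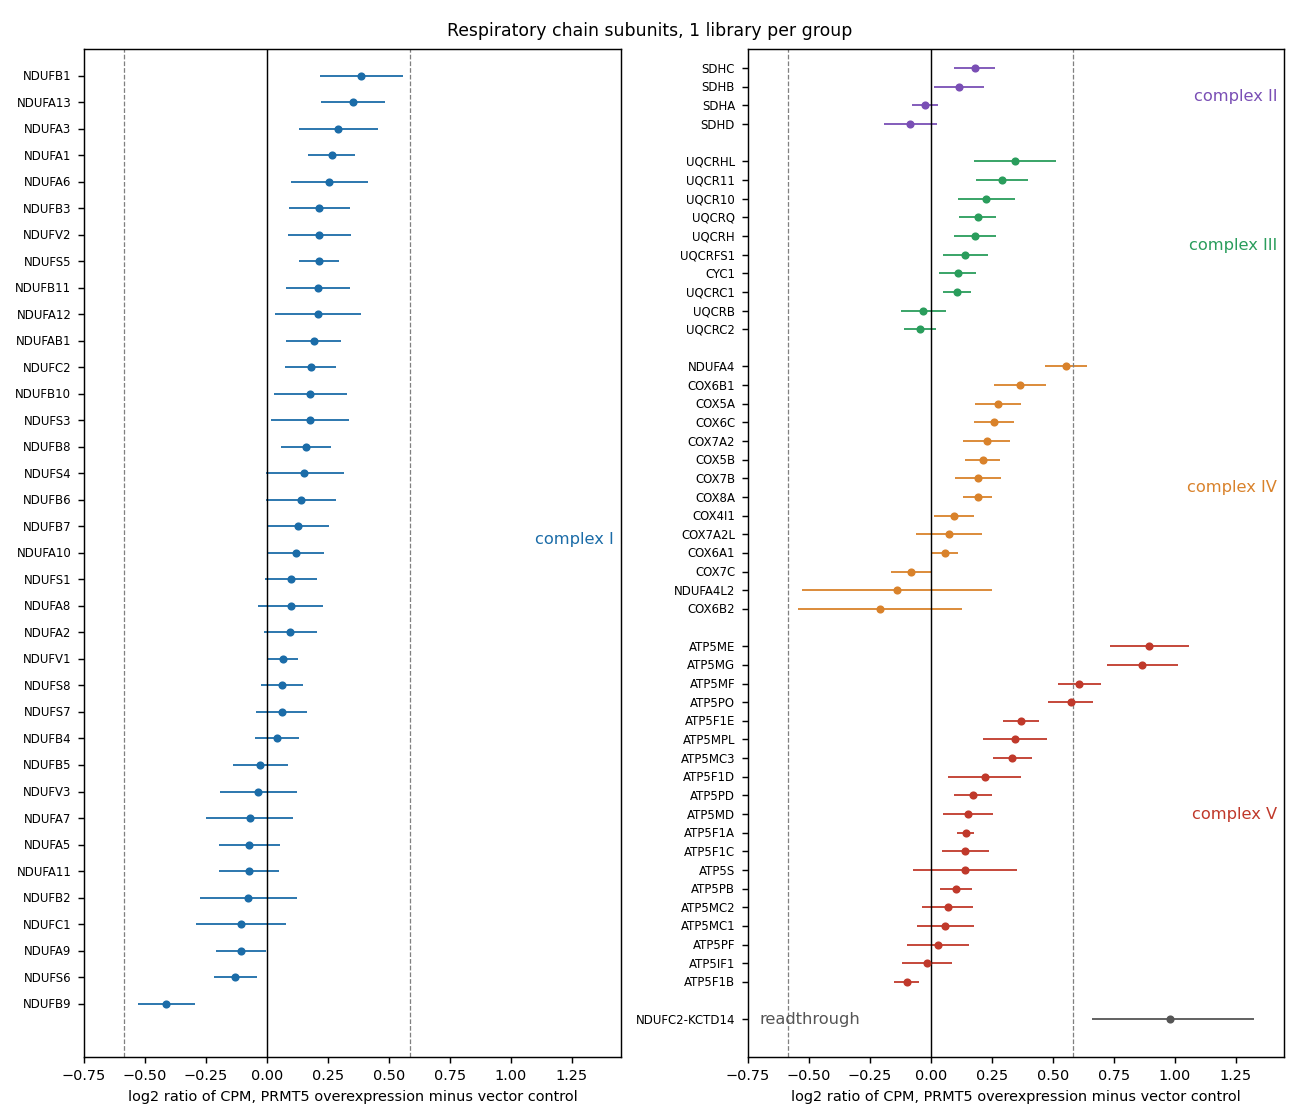
Log2 ratio of CPM (PRMT5 overexpression minus vector control, horizontal axis) for 84 of the 85 genes past 10 reads, by complex, with 95% counting intervals as bars and dashed lines at 1.5-fold. Most genes lie right of 0, and ATP5ME, ATP5MG, ATP5MF and NDUFC2-KCTD14 (grey, at the bottom right) lie beyond 1.5-fold.

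As a whole, the 92 genes took 0.94% of vector control reads and 1.01% of PRMT5 overexpression reads. Their summed reads were 132727 and 201929, a log2 ratio of 0.14 with a counting interval of 0.13 to 0.15. Levels past the floor ran from 7.15 CPM for NDUFA4L2 to 808 CPM for ATP5F1A in the vector control. Summed by complex, the log2 ratio was 0.09 for complex I, 0.03 for complex II, 0.12 for complex III, 0.19 for complex IV and 0.19 for complex V. The interval of complex II, -0.01 to 0.07, was the one that included 0.

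**Figure D2:**
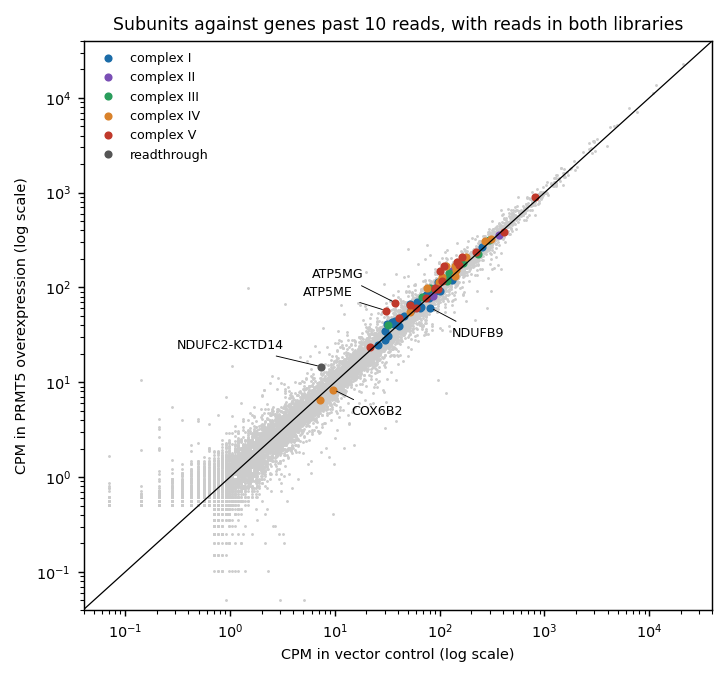
CPM in the vector control (horizontal) against CPM in the PRMT5 overexpression library (vertical), both on log scales, for all genes past 10 reads with reads in both libraries (grey) and the subunits by complex (colours); the line marks equal levels. The subunits lie near the line at 7.15 to 808 CPM in the control, with ATP5ME, ATP5MG and NDUFC2-KCTD14 above it and NDUFB9 below.

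Complex I, the NADH dehydrogenase, had 37 members, all past the floor, with a median log2 ratio of 0.12 (0.079 without members that share exon bases) and 27 above 0. Its 7 nuclear core subunits, which hold the flavin and iron-sulphur centres or the quinone site, had log2 ratios above 0, at a median of 0.06. NDUFV1, which binds NADH, was at 253 and 264 CPM in the control and PRMT5 overexpression libraries. NDUFS1, the large iron-sulphur protein that receives its electrons, was at 84.6 and 90.5 CPM. NDUFV2, another iron-sulphur protein of the NADH module, had the highest ratio of the core, at 54.6 and 63.4 CPM. A pseudogene, NDUFV2P1, shares sequence with NDUFV2, and their summed reads had a log2 ratio of 0.14 in place of 0.21. Of the quinone-module subunits, NDUFS3 was at 36.9 and 41.6 CPM, NDUFS7 at 87.1 and 90.8 and NDUFS8 at 133 and 139 CPM. Their log2 ratios were 0.17, 0.06 and 0.06. Of the 7 core subunits, the intervals of NDUFV1, NDUFV2 and NDUFS3 lay wholly above 0.

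The 30 accessory subunits of complex I, which surround the core and help it assemble, spread more widely. NDUFB1 was highest, at 31.6 CPM in the control and 41.2 CPM in the other library, or 0.39 in log2 (interval 0.22 to 0.56). NDUFA13, also known as the cell death regulator GRIM19, was next at 52.4 and 67.0 CPM, a log2 ratio of 0.35. It shares 131 exon bases with YJEFN3, which held 13 and 137 reads, and the sum over NDUFA13 and its exon-sharing genes was at 0.40. NDUFB9, a membrane-arm subunit, was the lowest of all subunits, at 81.5 and 61.2 CPM. In log2 this was -0.41 (interval -0.53 to -0.30), and NDUFB9 (ENSG00000147684) lies on chromosome 8 from 124539103 to 124568510 on the plus strand.

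The next lowest subunit over all complexes, COX6B2, was at -0.21. NDUFB9 shares exon bases with TATDN1 (399 and 571 reads) and MTSS1 (497 and 610 reads), and the sum of the 3 genes was at -0.25. NDUFS6, an accessory subunit that binds zinc, was next lowest in complex I at 130 and 118 CPM, a log2 ratio of -0.13. NDUFA9, a quinone-module accessory subunit, was the other complex I gene with an interval wholly below 0, at -0.11. NDUFA7, at -0.07, overlaps AC010323.1, which held 0 and 86 reads, and the sum over NDUFA7 and its exon-sharing genes was at 0.09. By gene series, 9 of 13 NDUFA genes (NDUFAB1 counted among them), 8 of 11 NDUFB genes, 7 of 8 NDUFS genes, 2 of 3 NDUFV genes and 1 of 2 NDUFC genes were above 0.

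Complex II, succinate dehydrogenase, was divided. SDHA, the flavoprotein, was at 364 CPM in the control and 359 CPM in the other library, and SDHD, a membrane anchor, at 86.4 and 81.6 CPM. SDHB, the iron-sulphur subunit, was at 90.7 and 98.3 CPM, and SDHC, the other membrane anchor, at 130 and 148 CPM. SDHB and SDHC were thus higher, with log2 ratios of 0.11 and 0.18, and SDHA and SDHD slightly lower, at -0.02 and -0.08, with intervals that included 0. The median was 0.05, and 0.11 without members that share exon bases. SDHA shares 22.1% of its tested 50-base stretches with transcripts of other genes, most often SDHAP3, and SDHD 20.9%.

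Complex III, the cytochrome bc1 complex, had 10 members with a median log2 ratio of 0.16, of which 8 were above 0 with intervals wholly above it. CYC1, which encodes cytochrome c1, was at 167 and 180 CPM. UQCRFS1, the Rieske iron-sulphur protein, was at 111 and 122 CPM, and both had small ratios of 0.11 and 0.14. The small subunits UQCR11, UQCR10 and UQCRQ stood at 0.29, 0.23 and 0.19. UQCRC2, a large core protein on the matrix side, was at 231 and 225 CPM and UQCRB, which lies near the quinone site, at 118 and 116 CPM. These were -0.04 and -0.03 in log2, with intervals that included 0, while UQCRC1, the partner of UQCRC2, was at 0.11. UQCRH, the hinge protein that helps cytochrome c dock, held 1765 and 2769 reads, and its intronless copy UQCRHL held 456 and 801. Reads of these 2 genes are uncertain, since 28.6% of the UQCRH stretches occur elsewhere, and their sum was at 0.22, between the separate values of 0.18 and 0.35.

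Complex IV, cytochrome c oxidase, had a median log2 ratio of 0.19, with 11 of 14 genes past the floor above 0. With no floor, which brings in 5 alternative forms with 0 to 2 reads, the median was 0.098. Its catalytic core subunits are mitochondrially encoded, so its nuclear members are the surrounding ones. NDUFA4 had the highest ratio, at 114 CPM in the control and 167 CPM in the other library. This was 1.47-fold, 0.55 in log2 (interval 0.47 to 0.64), and NDUFA4 (ENSG00000189043), at 10931951 to 10940256 of chromosome 7 (minus strand), shares no exon base with a counted gene. COX6B1, which faces the intermembrane space and joins the dimer, was at 76.5 and 98.6 CPM, a log2 ratio of 0.37. COX5A, COX6C, COX7A2, COX5B, COX7B and COX8A followed at 0.28, 0.26, 0.23, 0.21, 0.19 and 0.19. COX4I1, the largest nuclear subunit, was at 142 and 152 CPM (0.10 in log2), COX6A1 at 309 and 322 CPM (0.06), and COX7C at -0.08.

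Several complex IV subunits exist in alternative forms that differ between tissues, and Tu212 cells held mostly the widely expressed form in both libraries. COX4I2, the lung and hypoxia form, COX6A2, the heart and muscle form, and COX7B2 had 0 reads in both libraries, which allows levels up to 0.21 CPM in the control and 0.152 CPM in the other. COX7A1, the muscle form, had 2 reads in each, and COX8C had 2 and 0. COX6B2, known from testis, had 138 and 165 reads, which per kilobase of transcript was 5.82 CPM against 135 CPM for COX6B1 in the vector control. NDUFA4L2, known as a hypoxia-induced form, had 102 and 128 reads, at 6.08 CPM per kilobase against 53.4 for NDUFA4. The log2 ratios of COX6B2 and NDUFA4L2 were -0.21 and -0.14, with wide intervals of -0.54 to 0.13 and -0.53 to 0.25 at this depth. NDUFA4L2 shares 33 exon bases with SHMT2, which held 2109 and 3100 reads, and their sum was at 0.08. Most reads of that sum are from SHMT2, which by itself was at 0.09. COX7A2L, which helps respiratory complexes join into supercomplexes, was at 0.07.

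Complex V, the ATP synthase, held the subunits with the highest ratios, and they were small proteins of its membrane part. Of 19 members past the floor 17 were above 0, with a median of 0.15, and without ATP5ME, ATP5MF and ATP5MG the median was 0.14. ATP5ME encodes subunit e, which with subunit g lies where the enzyme forms dimers. It was at 30.6 CPM in the control and 57.0 CPM in the PRMT5 overexpression library, from 437 and 1124 reads. This was 1.86-fold, 0.89 in log2 (interval 0.74 to 1.06). ATP5ME (ENSG00000169020) spans 672436 to 674338 of chromosome 4 (minus strand). It shares 579 exon bases with MYL5, a gene with 40 and 52 reads, and their sum was at 0.83.

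ATP5MG, which encodes subunit g, was at 37.8 and 68.9 CPM, from 539 and 1358 reads. This was 1.82-fold, 0.86 in log2 (interval 0.72 to 1.01). ATP5MG (ENSG00000167283), on the plus strand of chromosome 11 from 118401154 to 118431496, shares 17.0% of its 50-base stretches with transcripts of other genes. Most often this was AP001267.5, which could not be matched to a single row of counts. ATP5MG shares 261 exon bases with AP001267.1, which held 9 and 14 reads, and their sum was at 0.86. ATP5MF, for subunit f, was at 109 and 167 CPM, from 1559 and 3290 reads, 0.61 in log2 (interval 0.52 to 0.70). ATP5MF (ENSG00000241468) spans 99448475 to 99466331 of chromosome 7 (minus strand), and shares 53 exon bases with PTCD1, which held 997 and 1298 reads. PTCD1 by itself was at -0.09 and the sum at 0.38, under 1.5-fold. ATP5MPL and ATP5MD, the remaining small membrane subunits, were lower than these, at 0.35 and 0.15.

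Subunits of the head and stalk differed among themselves too. In the catalytic F1 head, the alpha and beta subunits are paired in equal number. ATP5F1A was at 808 and 893 CPM and ATP5F1B at 410 and 383 CPM, not scaled by length. Per kilobase of transcript, ATP5F1A was at 385 CPM and ATP5F1B at 223 CPM in the vector control. With merged exons the order was reversed, at 74.1 and 177 CPM per kilobase. The log2 ratios of ATP5F1A and ATP5F1B were 0.14 and -0.10, with intervals of 0.11 to 0.18 and -0.15 to -0.05 that did not overlap. The gamma, delta and epsilon subunits of the central shaft, ATP5F1C, ATP5F1D and ATP5F1E, were at 0.14, 0.22 and 0.37. In the peripheral stalk, which holds the head still, ATP5PO was at 100 and 149 CPM, 1.49-fold or 0.57 in log2 (interval 0.48 to 0.67). ATP5PB, ATP5PD and ATP5PF of the same stalk were at 0.11, 0.17 and 0.03. ATP5PB shares 350 exon bases with WDR77, which encodes the PRMT5 partner MEP50 and was at 0.19, and ATP5PF shares 413 with GABPA, at 0.15.

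The rotating c ring is encoded by 3 genes whose mature proteins are the same and whose import sequences differ. ATP5MC1 was at 73.4 and 76.5 CPM and ATP5MC2 at 90.7 and 95.2 CPM, with intervals that included 0. ATP5MC3 was at 147 and 185 CPM, 0.34 in log2 (interval 0.26 to 0.41). ATP5IF1, the inhibitor that blocks ATP hydrolysis, was at 96.8 and 95.7 CPM, or -0.02 in log2, and ATP5S, a coupling factor, at 0.14. ATP5MGL, a copy of ATP5MG, had 0 reads in both libraries.

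**Figure D3:**
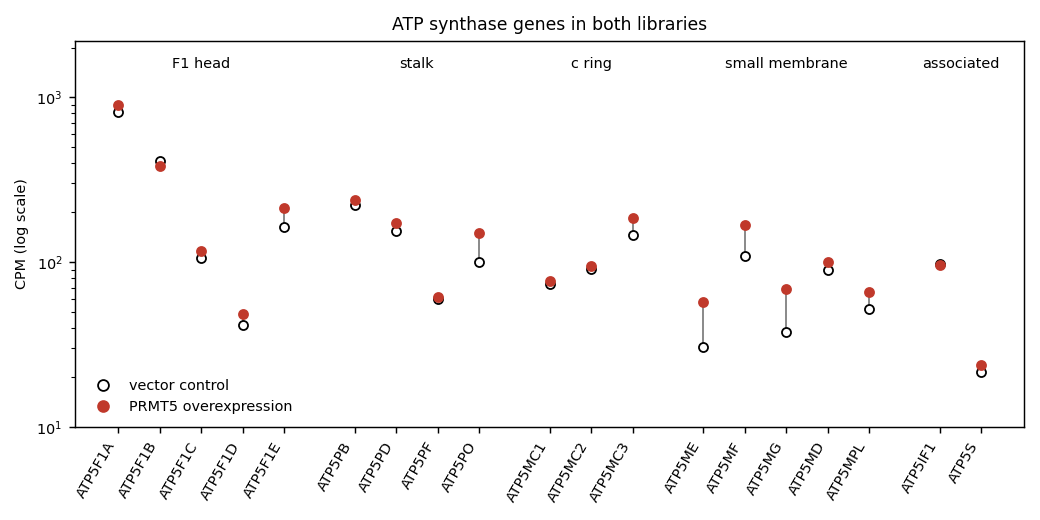
CPM (log scale) of the ATP synthase genes in the vector control (open circles) and PRMT5 overexpression (red) libraries, by part of the enzyme, 1 library each. ATP5ME, ATP5MF, ATP5MG and ATP5PO show the widest gaps, from 30.6 to 57.0 CPM for ATP5ME, and ATP5F1B is lower in the PRMT5 overexpression library.

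The 2 readthrough genes are uncertain because their exons belong to other genes too. NDUFC2-KCTD14 held 105 and 288 reads, 0.98 in log2 (interval 0.66 to 1.32), and shares 431 exon bases with NDUFC2, which held 1209 and 1892. The sum of both was at 0.26, and NDUFC2 alone at 0.18. ATP5MF-PTCD1 held 4 and 5 reads.

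Levels can be compared between genes only per length, and 5 genes were among the 10 highest whether the length was the median annotated coding transcript or all merged exons. Per kilobase of transcript, COX6A1 was at 540 CPM in the control and COX8A at 529 CPM, followed among these 5 by UQCRQ at 272, NDUFS5 at 256 and COX5B at 253. ATP5F1A at 385 CPM, ATP5MF at 338 and SDHC at 283 also ranked among the highest 5 per kilobase of transcript, but at places 16, 26 and 76 with merged exons. COX6A1 shares 34.0% of its stretches with other transcripts, most often the pseudogene COX6A1P2. By complex, the median level per kilobase was 63.3 CPM for complex I, 137 for complex II, 141 for complex III, 181 for complex IV and 112 for complex V in the vector control. In the PRMT5 overexpression library these medians were 71.4, 132, 152, 198 and 142. Each median is taken within 1 library and can rest on different genes, so the pairs do not measure a change. In complex V the median gene was ATP5MC2 in the control and ATP5MC1 in the other library. The log2 ratio of summed reads was 0.03 for complex II and 0.19 for complex V. The ranges within each complex overlapped widely, from 13.0 to 256 CPM per kilobase in complex I and from 5.82 to 540 in complex IV.

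Subunit transcripts are short, and in these libraries short transcripts had slightly higher ratios in general. The median transcript length was 753 bases over the 85 subunits and 2821 over other protein-coding genes averaging at least 500 reads. These well-read genes were put into 5 classes of length. In the shortest class, up to 1582 bases, the 1303 other genes had a median log2 ratio of 0.04 with 59.8% above 0, and in the longest class the median was -0.03 with 42.1% above 0. The 64 subunits in the shortest class had a median of 0.18, and 55 of them were above 0. The 11 subunits of the next class had a median of 0.11 against 0.01 for 1356 other genes. The part of transcript length in the values of the subunits was not tested further.

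**Figure D4:**
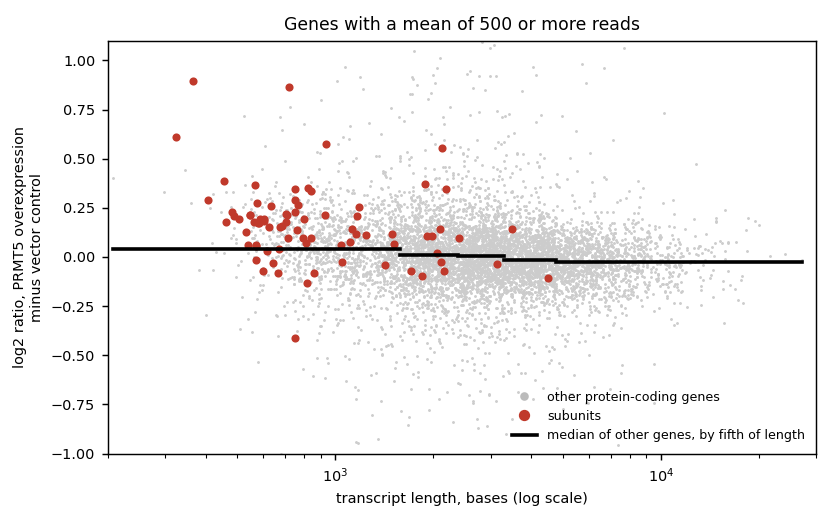
Log2 ratio (vertical) against transcript length in bases (horizontal, log scale) for genes averaging at least 500 reads: other protein-coding genes in grey, of which 57 of 6757 lie outside the plotted range, 79 subunits in red, and black lines for the median of other genes in each length class. The medians of other genes run from 0.04 in the shortest class to -0.03 in the longest.

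Other genes of the pathway were described by lists of assembly factors, electron carriers and regulators. For comparison, 50.4% of all genes past 10 reads had a log2 ratio above 0, and 59.8% of the 1303 other genes in the shortest length class. The counts above 0 in the lists here and below were not tested against these shares. The 13 mitochondrially encoded subunits, the partners of the nuclear ones, were all above 0, with a median log2 ratio of 0.27. MT-ND6 was highest at 0.72 and MT-CO1 lowest at 0.07. Their reads were 4.78 times those of the nuclear subunits in the vector control and 5.07 times in the PRMT5 overexpression library. Of the assembly factors, 14 of 19 for complex I, 2 of 4 for complex II, 2 of 6 for complex III, 16 of 23 for complex IV and 1 of 4 for complex V were above 0. Their medians were 0.12, 0.02, -0.11, 0.07 and -0.13. The highest ratios among assembly factors were those of DMAC2, a complex I assembly factor, at 8.06 and 15.6 CPM (a log2 ratio of 0.95), and PET100, a complex IV assembly factor, at 18.6 and 28.8 CPM (0.63). TTC19, which serves complex III, was the lowest at 37.2 and 29.1 CPM (-0.36). PET100 and TTC19 each share exon bases with 1 counted gene.

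Among electron carriers, 9 of 13 genes for cytochrome c and coenzyme Q synthesis were above 0, with a median of 0.09. CYCS, cytochrome c itself, was at 0.20, PDSS1, which starts the coenzyme Q tail, at 0.40 and COQ9, a lipid-binding synthesis protein, at -0.35. PDSS1 and COQ9 each share exon bases with 1 counted gene. Of 12 measured regulators of mitochondrial biogenesis 9 were above 0, with a median of 0.05. YY1 was at 104 CPM in the control and 203 CPM in the PRMT5 overexpression library, 0.96 in log2 (interval 0.88 to 1.05). NRF1 was at 21.4 and 17.2 CPM, a log2 ratio of -0.31, TFAM, which packages mitochondrial DNA, was at -0.22, and the coactivator PPARGC1A had 0 and 1 reads.

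The citric acid cycle, which feeds complexes I and II, had a median of 0.06 with 11 of 17 genes above 0, and 1 gene stood far below. CS, citrate synthase, was at 229 CPM in the control and 91.4 CPM in the PRMT5 overexpression library. This was 2.51-fold lower, or -1.32 in log2 (interval -1.41 to -1.24), and CS shares exons with 2 counted genes. OGDH, of the oxoglutarate dehydrogenase complex, was highest at 0.43. Protein import genes had a median of 0.09, with 16 of 21 above 0. TIMM44, which anchors the import motor, was lowest at -0.16, and TOMM6, a small subunit of the outer membrane pore, was highest at 1.44 from 23 and 88 reads, with exon bases shared with 2 counted genes. The squamous epithelial markers had a median of 0.15 with 8 of 10 above 0, and summed levels of 9560 and 10500 CPM.

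**Figure D5:**
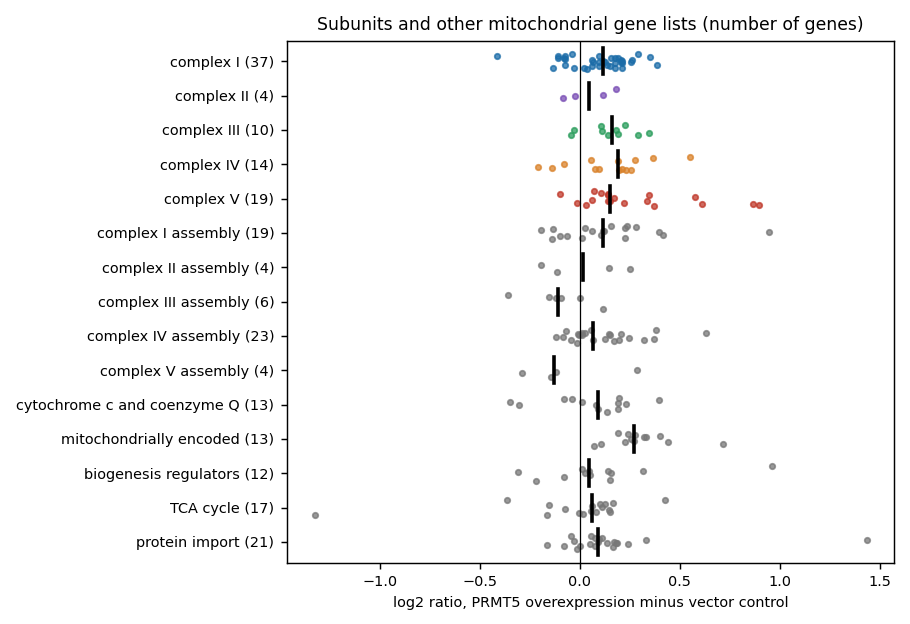
Log2 ratio (horizontal) of each gene past 10 reads in the 5 complexes (colours) and in 10 other mitochondrial gene lists (grey), with the median of each as a black bar and the number of genes in brackets. The mitochondrially encoded genes have the highest median at 0.27, and CS lies lowest at -1.32.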

How the data were processed

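Polyadenylated RNA of 2 Tu212 libraries, 1 per group, was analysed, grouped by the genotype in the labels. The tools listed per the submitters' processing notes are HISAT2 2.1.0, StringTie 1.3.4b, CASAVA 1.8 and edgeR, and the build GRCh38, with no step given for any; the counter and its strand setting are not given in the sources used here. Raw counts per gene were used as deposited. The FPKM values deposited by the authors served for 1 alternative; 0 columns of per-sample values went unused.

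Where a symbol stood on several rows, these were added up. Counts were scaled by TMM (edgeR 4.0.16, R 4.3.3; factors 1.01 and 0.99) to log2 CPM with a prior count of 1, for genes reaching 10 reads in either library. Intervals are Clopper-Pearson intervals at 95%, scaled by library size; reads are not independent molecules, so they and the limit of 3 reads for a count of 0 cover counting error only. Depth differed by a factor of 1.41. The ratio procedure was tested on simulated data with counting (Poisson) noise only, which does not cover variation between libraries.

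Exon sharing on either strand and lengths come from GENCODE release 29 (GRCh38), in which 89 of 92 genes had the deposited coordinates. Shared sequence is the share of 50-base stretches of the principal transcript, every 10 bases, found in transcripts of other genes. Genes of the deposited data that share an exon with the member were left out. Other annotated genes were not screened for shared exons. Of the 85 genes, 35 share exon bases and 14 share 5% or more of stretches. Calculations used Python 3.11.15 with pandas 2.3.3 and scipy 1.17.1.

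Genes and lists were chosen with earlier results of these data known. Values are given for the 2 highest and 2 lowest ratios of each complex with a mean of 50 or more reads, genes at 1.5-fold, core subunits, the highest levels per kilobase, alternative forms, exon-sharing genes, and the extremes of each other list; further members stand beside them by role. Of the core subunits, 1 is counted in all totals but not reported here by itself. The alternatives tried were DESeq2 1.42.0 size factors, total counts, prior counts of 0.1 and 5, no floor, a floor of 50 reads, the row with most reads per symbol, deposited FPKM with a pseudocount of 1, and leaving out exon-sharing members.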

Additional observations from a re-analysis of the deposited data

How the results depend on the processing

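No paired analysis was possible because there is only 1 library a side. The median log2 ratio of the subunits lay between 0.11 and 0.156 under all alternatives run for it. Of 84 recalculated medians and counts over the subunits and complexes, 81 stayed close to the reported value (counts within 1.5 times, medians within 0.105, the median half-width of the counting intervals). Of the 3 others, 2 rest on fewer genes by construction: with exon-sharing members left out, 38 subunits were above 0 and 0 were at 1.5-fold or more higher. With no floor, 1 subunit, COX8C, was at 1.5-fold or more lower, from 2 and 0 reads. The limit of 0.105 is wide beside medians of 0.14 over all subunits and 0.05 for complex II. Staying within it therefore does not show that a median is stable. Within that limit the median of complex IV still moved from 0.19 to 0.098 with no floor, below complexes I, III and V at 0.14, 0.19 and 0.17, and without exon-sharing members complex I was at 0.079 and complex II at 0.11. With no floor complex II was at 0.07. All 510 values recalculated for single members with other prior counts, scalings, rows or FPKM stayed within their counting intervals; such settings move well-read genes little by design. Summed with their exon-sharing genes, 4 of 35 members left their intervals: NDUFB3 at 0.04, NDUFB9 at -0.25, ATP5MF at 0.38 and NDUFC2-KCTD14 at 0.26. NDUFA7 and NDUFA4L2 changed sign in that sum, to 0.09 and 0.08. The sum takes in all reads of a neighbour, however few bases are shared, so a well-read neighbour can set its value. By themselves SHMT2, the neighbour of NDUFA4L2, was at 0.09 and FAM126B, the neighbour of NDUFB3, at -0.10. These shifts therefore do not show how far the members themselves depend on shared reads. The sum, the subsets by read number and by shared sequence, and complex V without its 3 highest genes were chosen after seeing the data.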
